A study of Mus musculus with 9 samples.

Results

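Pitx1, Pitx3, Tbx1, Tbx4, Tbx5, Tbx15, Sim1, Sim2 and Zic1 are 9 transcription factor genes known for setting regional identity in the embryo. Every non-control probe whose gene name in the scanner files equalled one of these symbols was taken, which gave 14 probes of the 9 genes among 41174 probes and 27745 gene names of a whole-genome mouse array. Of these, 9 probes of 6 genes (Pitx3, Tbx1, Tbx4, Tbx5, Tbx15 and Sim2) could be tested. The other 5 probes, which include every probe of Pitx1, Sim1 and Zic1, were not well above background on any of the 9 arrays.

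The study measured RNA of sorted cells from the tibialis anterior, a muscle of the lower hindlimb, of mice aged 3 months. The iPax3 and iPax7 groups (3 arrays each) were mononucleated cells re-isolated from muscle of the NSG/NSGmdx4cv strain after injection of myogenic progenitors derived from pluripotent stem cells. The third group (3 arrays) was adult satellite cells, the stem cells that reside beside muscle fibres, from the Pax7-ZsGreen strain. Each sample held 1500 cells, taken from 3 mice per line in 3 independent experiments, and its RNA was amplified before labelling. NSG mice are immunodeficient, mdx4cv is a dystrophin-mutant allele, and the sort gate, and how host cells were kept out, are not in the labels. Re-isolated and satellite cell arrays differed in strain, in slide and in scan day, so that these cannot be told apart from cell type. The spread behind each p-value is that between these samples, which may in part be technical. In such bulk samples, fewer cells of a type and less RNA per cell cannot be told apart.

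Pitx genes encode bicoid-type homeodomain proteins. Pitx1 is known for hindlimb identity, and Pitx3 for lens and dopaminergic neuron development and for a role in skeletal muscle. T-box proteins bind DNA through a shared domain: Tbx1 acts in the pharyngeal arches and head muscles, Tbx4 in the hindlimb, Tbx5 in the forelimb and heart, and Tbx15 in limb skeleton and muscle fibres. Sim1 and Sim2 are bHLH-PAS proteins that pair with Arnt proteins, and Sim2 is known as a repressor of Myod1 in embryonic limb muscle. Zic1 is a zinc finger protein of the dorsal neural tube and somites.

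Each probe is a 60-base oligonucleotide, and its first 30 bases are shown, 5′ to 3′, for Sim2, for Pitx3 and for the genes whose probes did not behave alike. No base is singled out, so all letters are in lower case. Positions are those of the mm8 build in the file headers. Which exon or UTR each position falls in was not determined here.
Sim2 A_51_P326152, chr16:94236651-94236710, plus strand: tccagcgcgcacagatttgctagtcctacg
Pitx3 A_51_P477614, chr19:46189000-46189059, minus strand: ttctccagactccccctatcccattttcaa
Tbx5 A_51_P469338, chr5:120132000-120143562, plus strand: aaatttaccactgtaccaagaggaaagatg
Tbx5 A_52_P523712, chr5:120144695-120144754, plus strand: aaatacctacctccgtcatgtgagatgtct
Tbx15 A_51_P169659, chr3:99482760-99482819, plus strand: agaatgaagagaatggttttatctccaagg
Tbx15 A_52_P232802, chr3:99483039-99483098, plus strand: aagtgaaactgggtgcaagctaaaattttt
Tbx15 A_52_P648635, chr3:99481467-99481526, plus strand: gcccagagaaactgagcgcgtctcaaagca

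The position of the Tbx5 probe A_51_P469338 covers 11563 bases of genome, so this 60-base probe crosses at least 1 intron. The other Tbx5 probe lies 1132 bases further on. The 3 Tbx15 probes lie within a short stretch of chromosome 3, with 219 bases between A_51_P169659 and A_52_P232802 and 1233 bases between A_52_P648635 and A_51_P169659.

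Levels are given as the log2 of the background-subtracted signal minus the 75th percentile of the same array, so a level of 0 is that percentile. Well above background is the scanner software's own flag, set at 13 standard deviations of the background. A probe was tested when it had that flag on at least 3 of the 9 arrays, and between 56.7% and 79.7% of probes had it on an array. The percentile itself ranged from 206.5 to 849 signal units, so levels of dim probes reach lower on some arrays than on others. Satellite replicate 1 correlated at a mean of 0.62 with the re-isolated arrays and 0.58 with the other satellite cell arrays, whereas for satellite replicates 2 and 3 the means were 0.54 and 0.53 against 0.62 and 0.61.

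**Figure D1:**
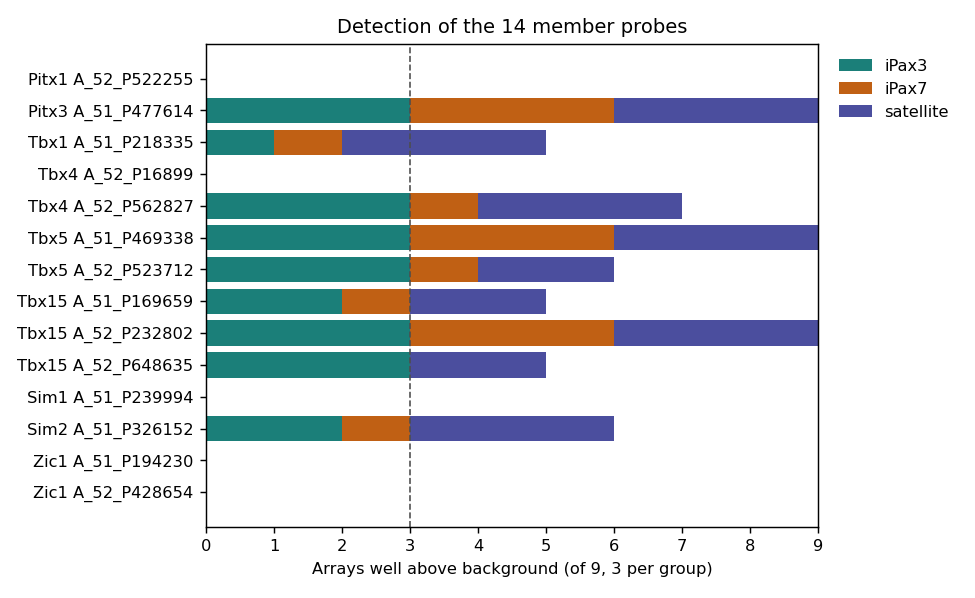
Bars count, for each of the 14 probes (vertical axis), the arrays of 9 on which it was well above background (horizontal axis), stacked by group with 3 arrays each, and the dashed line marks the 3 arrays needed for testing. Pitx3 and a probe each of Tbx5 and Tbx15 reached 9 arrays, and 5 probes of Pitx1, Tbx4, Sim1 and Zic1 reached 0.

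Sim2 was lower in both re-isolated lines than in satellite cells and was the only gene of the 9 to pass the test. Its signal was 552, 825 and 1360 units in satellite replicates 1, 2 and 3. The iPax3 arrays gave 18.2, 16.7 and 11.2 units, and those of iPax7 8.07, 9.25 and 13.7 units. All 3 satellite cell arrays were far above all 6 re-isolated arrays, and the groups did not overlap.

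After scaling, the Sim2 level was −0.62, 1.22 and 2.72 in satellite cells, with a mean of 1.11 ± 1.67 (SD, n = 3). The iPax3 levels were −4.46, −4.74 and −5.46 (−4.88 ± 0.52, SD, n = 3). The iPax7 levels were −5.07, −5.78 and −5.1 (−5.32 ± 0.4, SD, n = 3). Sim2 was well above background on all 3 satellite cell arrays, on 2 of 3 iPax3 arrays and on 1 of 3 iPax7 arrays, so 3 of the 6 re-isolated values did not reach the flag.

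The Sim2 level fell by 5.99 ± 0.93 log2 units (SE) from satellite to iPax3 cells, a 63.6-fold difference with a 95% interval of −8.09 to −3.89 and an adjusted p of 0.0372. From satellite to iPax7 cells it fell by 6.42 ± 0.93 (85.9-fold, −8.52 to −4.33, adjusted p = 0.0241). For both lines together the difference was −6.21 ± 0.81 (73.9-fold, −8.02 to −4.39, adjusted p = 0.011). Of the 9 member probes tested, 1 was called lower in each of these comparisons, against a background of 0.0546%, 0.0576% and 0.13% of the 32982 probes tested that were called lower. In the iPax3 comparison no call on any probe was smaller than 4.26 log2 units, and in the iPax7 comparison none was smaller than 4.22.

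The order of the Sim2 levels was satellite, iPax3, iPax7, and the last 2 were not separated. The iPax7 and iPax3 levels overlapped and differed by −0.43 ± 0.93 (−2.53 to 1.66, adjusted p = 1). On slide 1, the only slide with arrays of both lines, the difference was −0.19. It rests on iPax7 replicate 1, the only iPax7 array on that slide.

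With every dim spot raised to the lowest signal well above background on its array, Sim2 was still lower by 5.94 log2 units in iPax3 cells (adjusted p = 0.0272) and by 5.68 in iPax7 cells (0.0292). With another background correction (normexp) the size dropped to −3.6 and −3.53, with adjusted p of 0.051 and 0.0465. With slide as a random block (estimated correlation 0.394) the adjusted p was 0.148 for iPax3, 0.0643 for iPax7 and 0.0515 for both lines together.

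The Sim2 call was kept in 8 of 14 other settings for iPax3, 10 of 14 for iPax7 and 11 of 13 for both lines together. It also changed with the arrays left out. Without satellite replicate 1 the differences were −6.86 and −7.29, with adjusted p of 0.00938 for iPax3 and 0.00734 for iPax7. The iPax3 call was lost without any other array, with adjusted p of 0.137, 0.129 and 0.178 without iPax3 replicates 1, 2 and 3, 0.051, 0.0647 and 0.0734 without iPax7 replicates 1, 2 and 3, and 0.13 and 0.0927 without satellite replicates 2 and 3. The iPax7 call was kept without iPax3 replicate 3 (0.0475) and lost without iPax3 replicates 1 and 2 (0.0516 and 0.0532), iPax7 replicates 1, 2 and 3 (0.0884, 0.0951 and 0.0916) and satellite replicates 2 and 3 (0.0898 and 0.0618). For both lines together the call was lost only without satellite replicate 2 (0.0635). In all 9 of these fits the iPax3 difference was between −6.86 and −5.18 and the iPax7 difference between −7.29 and −5.62.

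In the authors' deposited table, whose values are log2 on a scale of its own, Sim2 was 8.29, 9.83 and 10.73 in satellite cells and between 4.95 and 5.57 on the 6 re-isolated arrays. The groups did not overlap there either. Fitted in the same way, the authors' deposited table gave differences of −4.43 for iPax3 (adjusted p = 0.0223) and −4.32 for iPax7 (0.0244).

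**Figure D2:**
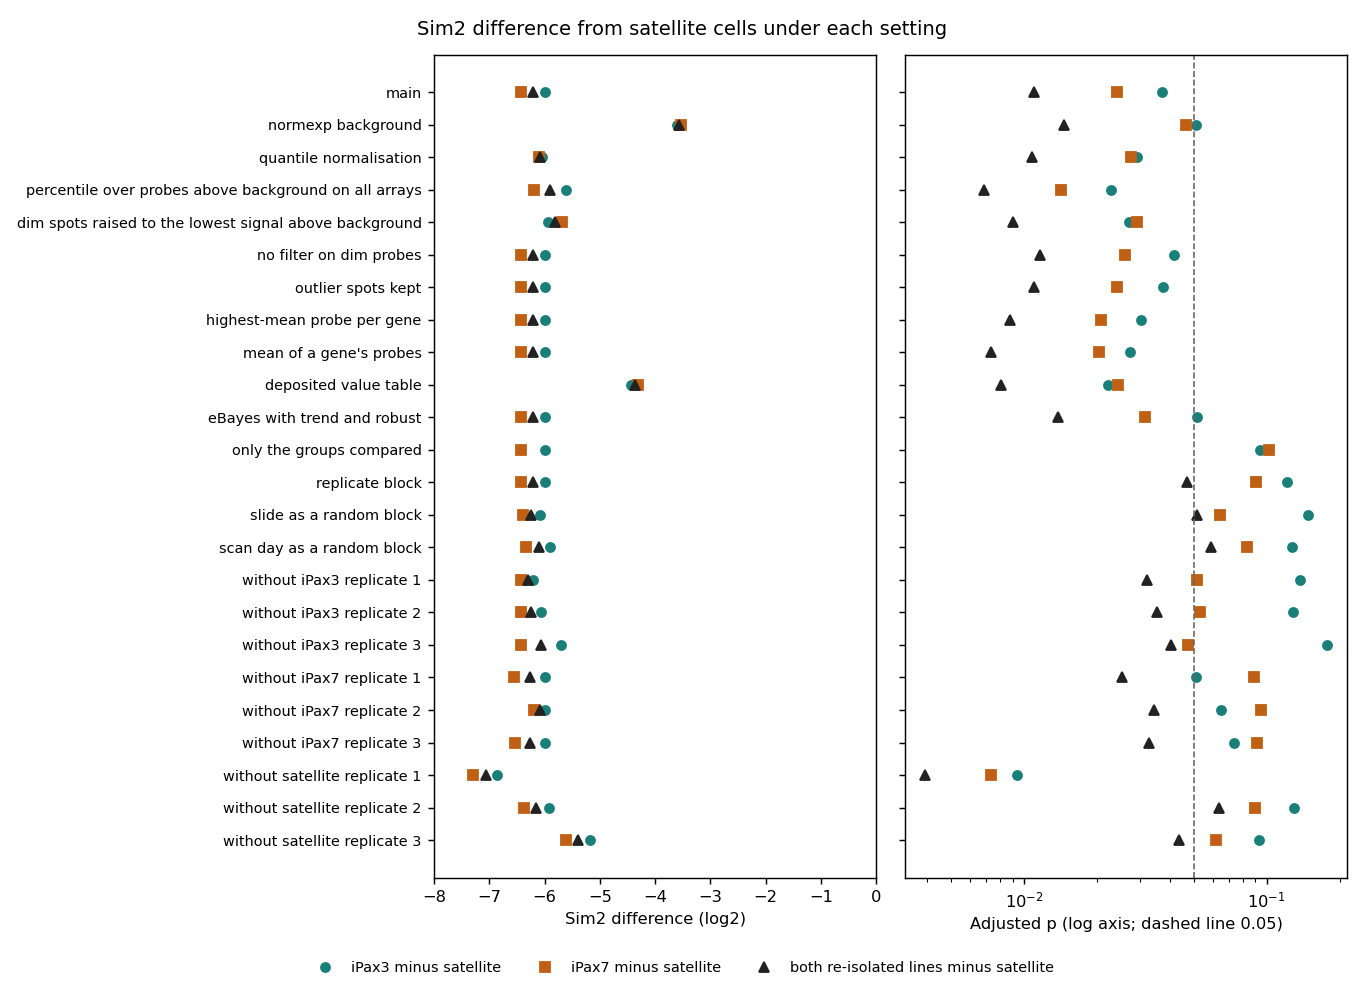
Points give the Sim2 difference from satellite cells in log2 units (left) and its adjusted p on a log axis (right) under each setting, for iPax3, iPax7 and both lines together, and the dashed line marks 0.05. The main differences were −5.99, −6.42 and −6.21, every setting shown kept Sim2 lower, and the call was kept in 8 of 14 of the other settings for iPax3 and 10 of 14 for iPax7 before any array was left out.

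The other Sim gene, Sim1, had signals between 1.62 and 4.65 units on the 9 arrays and was not well above background on any, so no difference can be given for it. Sim1 is known from hypothalamus and from limb-level somites.

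Over the 9 arrays, the 3 genes whose levels followed that of Sim2 most closely, among 22571 candidate genes, were Myf6, Ccdc180 and Hmgxb3, with Pearson r of 0.995, 0.994 and 0.993. These arrays fall into 3 high and 6 low Sim2 values, so r mostly reflects that split, and the points share their array and its scaling. Myf6, a myogenic regulatory factor of the Myod1 family, had mean levels of −3.77 in iPax3, −4.05 in iPax7 and −1.22 in satellite cells. Ccdc180 had mean levels of 1.02, 0.96 and 3.61 in the same order. Neither gene passed the test against satellite cells. The adjusted p for iPax3 and iPax7 was 0.217 and 0.187 for Myf6, and 0.204 and 0.202 for Ccdc180. Hmgxb3 was well above background on the 3 satellite cell arrays, at a mean of 3.04, and on no re-isolated array, so it was at least 291-fold lower in iPax3 and at least 207-fold lower in iPax7 cells, and its r rests on unmeasured values at 6 of the 9 points.

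Pitx3 was well above background on all 9 arrays and lower on every re-isolated array than on every satellite cell array, but its difference did not pass the test. Its signal was 703, 571 and 633 units in satellite cells, 77.2, 71.4 and 111 units for iPax3, and 91.7, 81.4 and 308 units for iPax7. The satellite cell signals lay close together, and iPax7 replicate 3 was the highest of the re-isolated arrays. After scaling, the levels were −0.27, 0.69 and 1.62 in satellite cells (0.68 ± 0.95, SD, n = 3), −2.37, −2.64 and −2.14 for iPax3 (−2.39 ± 0.25), and −1.57, −2.64 and −0.61 for iPax7 (−1.61 ± 1.02). The division by the array percentile widened the spread among satellite cell arrays, and the groups still did not overlap.

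The Pitx3 difference from satellite cells was −3.06 ± 0.83 log2 units (SE) for iPax3, with a 95% interval of −4.93 to −1.2 and an adjusted p of 0.194. For iPax7 it was −2.28 ± 0.83 (−4.15 to −0.42, adjusted p = 0.342), and for both lines together −2.67 ± 0.72 (−4.29 to −1.06, adjusted p = 0.151). The order was satellite, iPax7, iPax3, and the lines overlapped, with a difference of 0.78 ± 0.83 (−1.09 to 2.64, adjusted p = 1). Without satellite replicate 1 the adjusted p was 0.0862 for iPax3 and 0.173 for iPax7.

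Pitx1, the hindlimb member, had signals of 9.52, 11.6 and 11.4 units for iPax3, 3.23, 18.6 and 8.36 units for iPax7 and 1.66, 4.52 and 1.84 units in satellite cells. None was well above background, although all cells came from a hindlimb muscle, so the arrays give no measured level of Pitx1 in any group.

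**Figure D3:**
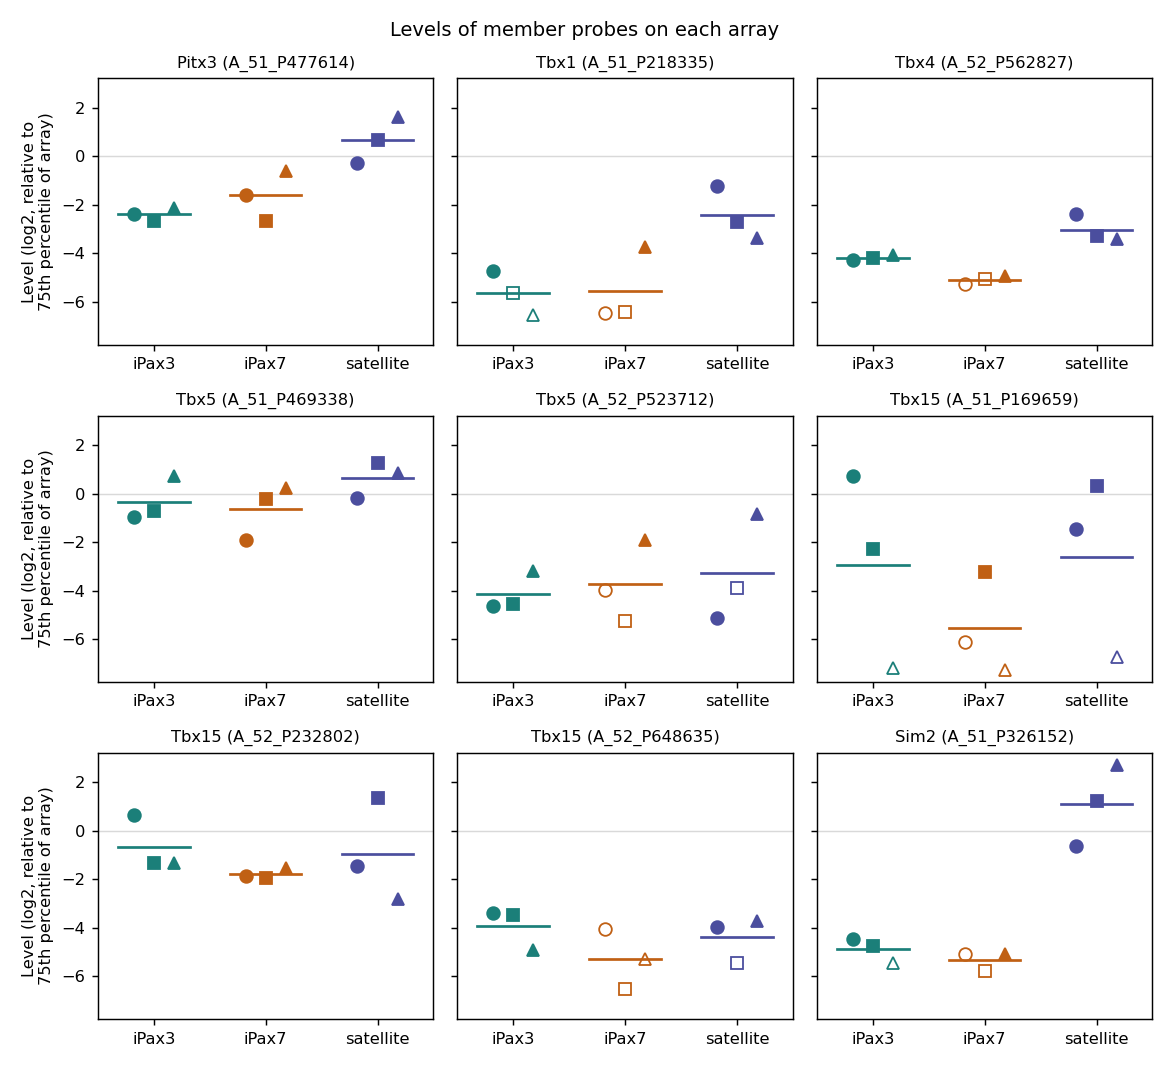
Each panel plots 1 tested probe, with its level on the vertical axis (log2, minus that array's 75th percentile) for the 3 arrays of each group, where circles, squares and triangles are replicates 1, 2 and 3, filled symbols are well above background and lines are group means. Sim2 and Pitx3 lie higher on all satellite cell arrays, whereas the Tbx15 probes scatter within groups.

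Of the hindlimb and forelimb T-box genes, Tbx5 was well above background on all 9 arrays with the probe A_51_P469338, and its levels overlapped between all groups. They were −0.96, −0.73 and 0.71 for iPax3 (−0.32 ± 0.91, SD, n = 3), −1.92, −0.22 and 0.23 for iPax7 (−0.64 ± 1.13) and −0.19, 1.27 and 0.83 in satellite cells (0.64 ± 0.75). The group means followed the order satellite, iPax3, iPax7, and no neighbours in it were apart by more than their spread allows. The difference from satellite cells was −0.96 ± 0.88 for iPax3 (−2.96 to 1.03, adjusted p = 0.681) and −1.28 ± 0.88 for iPax7 (−3.27 to 0.72, adjusted p = 0.619).

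The other Tbx5 probe, A_52_P523712, was well above background on 3 iPax3 arrays, 1 iPax7 array and 2 satellite cell arrays. Its levels ranged from −4.65 to −3.18 in iPax3, from −5.24 to −1.93 in iPax7 and from −5.11 to −0.85 in satellite cells, so all groups overlapped here too. The highest value of each group was on its replicate 3. The levels from the Tbx5 probes correlated at r = 0.47 over the 9 arrays, and the second gave differences of −0.85 ± 1.27 and −0.44 ± 1.27.

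Tbx4 was measured with the probe A_52_P562827, in the order satellite, iPax3, iPax7, with no overlap between any groups. Its signal was 165, 36.4 and 19.6 units in satellite cells, 20.7, 24.6 and 29.4 units for iPax3, and 7.09, 15.3 and 15.7 units for iPax7. As signals, before the division by the array percentile, satellite replicate 3 lay below every iPax3 array, so the separation of these groups came with the scaling. The levels were −2.36, −3.28 and −3.4 in satellite cells (−3.01 ± 0.57, SD, n = 3), −4.27, −4.19 and −4.06 for iPax3 (−4.17 ± 0.1), and −5.26, −5.05 and −4.91 for iPax7 (−5.07 ± 0.18).

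No Tbx4 difference passed the test. It was −1.16 ± 0.67 for iPax3 (−2.67 to 0.35, adjusted p = 0.519), −2.06 ± 0.67 for iPax7 (−3.57 to −0.55, adjusted p = 0.293) and −0.9 ± 0.67 between iPax7 and iPax3 (−2.41 to 0.61, adjusted p = 1). The probe was well above background on 3 satellite cell, 3 iPax3 and 1 iPax7 array. The second Tbx4 probe, A_52_P16899, 4682 bases away, never had the flag and holds 20% G and C bases, against 50% for the first.

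Tbx1, the head muscle member, was well above background on all 3 satellite cell arrays but on only 1 iPax3 and 1 iPax7 array. Its signal was 368, 54.9 and 19.8 units in satellite cells, 14.9, 9.16 and 5.28 units for iPax3, and 3.11, 5.9 and 35.1 units for iPax7. Satellite replicate 1 stood above all others, and as signals iPax7 replicate 3 exceeded satellite replicate 3. The levels were −1.2, −2.69 and −3.38 in satellite cells (−2.42 ± 1.11, SD, n = 3), −4.74, −5.61 and −6.54 for iPax3 (−5.63 ± 0.9), and −6.45, −6.43 and −3.74 for iPax7 (−5.54 ± 1.56).

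On the scaled levels the Tbx1 satellite cell arrays did not overlap either line, and the lines overlapped each other. The difference was −3.21 ± 1.02 for iPax3 (−5.51 to −0.9, adjusted p = 0.269) and −3.11 ± 1.02 for iPax7 (−5.42 to −0.81, adjusted p = 0.296). Neither passed. Over 14 other settings the iPax3 difference ranged from −3.64 to −1.56.

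Tbx15 showed no order of groups that its probes shared. With A_52_P232802, well above background on all 9 arrays, the levels were 0.66, −1.34 and −1.32 for iPax3 (−0.66 ± 1.15, SD, n = 3), −1.87, −1.95 and −1.52 for iPax7 (−1.78 ± 0.23) and −1.44, 1.37 and −2.8 in satellite cells (−0.96 ± 2.13). The satellite cell arrays spanned the values of both lines. The difference was 0.29 ± 1.12 for iPax3 (−2.23 to 2.82, adjusted p = 0.934) and −0.82 ± 1.12 for iPax7 (−3.35 to 1.7, adjusted p = 0.814).

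The neighbouring Tbx15 probe, A_51_P169659, gave 0.71, −2.29 and −7.21 for iPax3, −6.11, −3.22 and −7.26 for iPax7 and −1.47, 0.32 and −6.74 in satellite cells. On replicate 3 of every group it was not well above background, whereas A_52_P232802 was on those same arrays. The levels from these probes correlated at r = 0.75 over 9 arrays. The third Tbx15 probe, A_52_P648635, correlated at 0.12 and −0.04 with the others and was well above background on 3 iPax3, 0 iPax7 and 2 satellite cell arrays. Its iPax3 mean, −3.93 ± 0.86 (SD, n = 3), was at least 1.58-fold above the iPax7 bound, but the levels of the lines overlapped. The difference of iPax7 from iPax3 was −1.35 ± 0.93 (−3.44 to 0.73, adjusted p = 1) and did not pass.

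Zic1 had both its probes, which share 40 bases on chromosome 9, below the flag on all 9 arrays. The signals were between 2.86 and 20.7 units, and no group had a measured level.

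**Figure D4:**
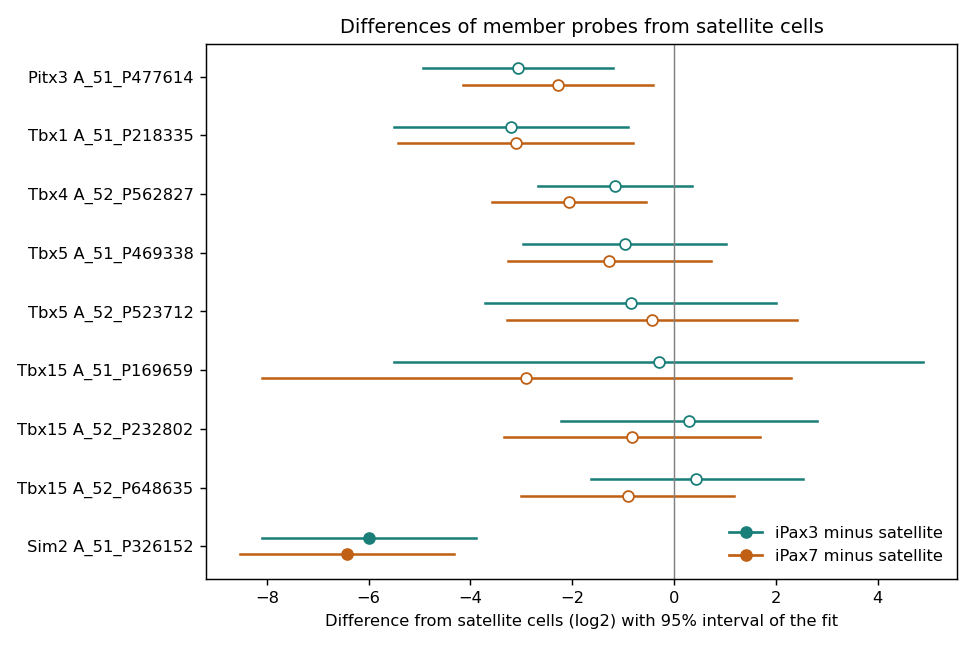
Points give the difference of each tested probe from satellite cells in log2 units on the horizontal axis, with the 95% interval of the fit, for iPax3 and iPax7, and filled points passed the test. The Sim2 points, at −5.99 and −6.42, are the only filled ones, and the intervals of Pitx3 and Tbx1, and of Tbx4 for iPax7, also lie below 0 without passing after adjustment.

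Among the 9 tested probes, 4 lay below satellite cells without overlap in iPax3, and 4 in iPax7, in each case the probes of Pitx3, Tbx1, Tbx4 and Sim2. Over all 32982 probes, 9.11% and 8.08% did so. The median difference of the 9 probes was −0.96 for iPax3 and −2.06 for iPax7, beside −0.03 and −0.06 over all probes. A probe that passed the filter through its satellite cell arrays had to be lower elsewhere, so these values describe the probes tested. The comparisons share their satellite cell arrays.

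Between the lines, limma called 0 of the 9 probes and 0 of all probes (0%). At an unadjusted p under 0.05 it found 0 of the 9 probes and 1410 of all probes (4.28%). Tbx4 and the Tbx15 probe A_52_P232802 did not overlap between the lines, both lower in iPax7, as were 5.15% of all probes. The Tbx15 difference was −1.12 ± 1.12 (−3.64 to 1.41, adjusted p = 1).

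Relatives of the members were described with the probe of highest mean level for each gene, for both lines together against satellite cells. In that comparison 14.3% of all probes had an unadjusted p under 0.05, the share beside which the counts at that threshold are to be read. Of 10 homeobox genes related to Pitx, 7 could be tested, 4 higher and 3 lower, with a median difference of 0.54 and 0 called (0 at an unadjusted p under 0.05). A second probe of Prrx1, a homeobox gene of limb mesenchyme, was called: A_52_P483713 rose by 7.75 ± 1.21 log2 units (215-fold, adjusted p = 0.0257), from a satellite cell mean of −4.44 to 3.3 in the re-isolated cells, where 0.628% of all probes were called higher. The Prrx1 probe of highest mean gave 1.93 ± 1.13 (adjusted p = 0.467), with satellite cell levels from −1.54 to 4.29. The Prrx1 call was lost without iPax3 replicates 1, 2 and 3 (adjusted p of 0.0677, 0.0643 and 0.0688), iPax7 replicate 2 (0.07) and satellite replicates 2 and 3 (0.114 and 0.115). Its difference was then between 6.84 and 9.43, the highest without satellite replicate 1. Over 11 other settings it was between 4.81, with normexp, and 8.05, and the call was lost with slide (0.119) or scan day (0.122) as a random block. Shox2 and Otx1 had differences of 1.42 and −1.22 (adjusted p of 0.624 and 0.433).

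Of 13 other T-box genes, 11 could be tested, 6 higher and 5 lower, with a median difference of 0.22 and 0 called (2 at an unadjusted p under 0.05). Tbx18, a T-box gene of mural and mesenchymal cells, was not well above background on any satellite cell array. Its mean in the re-isolated cells was at least 5.21-fold above that bound, and the difference did not pass (adjusted p = 0.237). It was smaller with normexp (1.05 log2 units, adjusted p = 0.692) and in the authors' deposited table (1.85, adjusted p = 0.385). Tbr1, a brain T-box gene, differed by 1.79 (adjusted p = 0.416).

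All 10 bHLH-PAS relatives and partners of Sim2 could be tested, 7 higher and 3 lower, with a median difference of 0.57 and 0 called (2 at an unadjusted p under 0.05). Clock, a circadian factor, differed by 3.78 ± 0.7 (adjusted p = 0.0505) and Npas1, a neuronal factor, by −1.81 (0.347). The Clock difference passed in 3 of 13 other settings. It was 1.15 with the mean of the Clock probes (adjusted p = 0.593) and 0.99 with normexp (0.635). The Arnt partners of Sim2, looked up after their values were seen, differed by 0.56 ± 1.85 for Arnt (adjusted p = 0.918) and 1.25 ± 0.64 for Arnt2 (0.413).

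Of 9 Zic and Gli zinc finger genes, 6 could be tested, 1 higher and 5 lower, with a median of −0.52 and 0 called (1 at an unadjusted p under 0.05). The higher gene was Gli3, a transcription factor of hedgehog signalling and limb patterning, with a difference of 6.53 ± 1.21 (adjusted p = 0.0515), which passed in 7 of 13 other settings. Zic4, unlike Zic1, was well above background on all 9 arrays, with levels between 0.3 and 0.68 in iPax3, 0.97 and 3.04 in iPax7 and 1.5 and 3.71 in satellite cells, and a difference of −1.45 ± 0.76 (adjusted p = 0.424).

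Of 8 regulators of head and branchial muscle, 5 could be tested, 1 higher and 4 lower, with a median of −1.09 and 0 called (0 at an unadjusted p under 0.05). Msc, known in branchial arch muscle precursors, differed by −3.63 ± 1.64 (adjusted p = 0.356), with satellite cell levels from −3.35 to 3.35. Lhx2 differed by −1.26 (adjusted p = 0.46).

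Of 14 regulators of limb and migratory muscle, 12 could be tested, 8 higher and 4 lower, with a median of 1.15. By the probe of highest mean 0 were called, and 6 had an unadjusted p under 0.05, 4 of them higher and 2 lower. A second probe of Meis2, a homeobox gene of proximal limb, was called. The Meis2 probe of highest mean, A_51_P422429, differed by 6.41 ± 1.48 for both lines together and did not pass (adjusted p = 0.101). A_52_P277641 was not well above background on any satellite cell array. It rose at least 39.7-fold in iPax7 cells (adjusted p = 0.0174), where 0.376% of all probes were called higher, and at least 9.34-fold in both lines together (0.0337). With dim spots raised to the lowest signal well above background, as in this bound, the difference for both lines was 3.22 log2 units and did not pass (adjusted p = 0.103). Its iPax3 difference did not pass (adjusted p = 0.28), and the difference between the lines was 4.17 ± 0.97 (adjusted p = 0.652).

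The Meis2 call in iPax7 was lost without iPax7 replicates 1, 2 and 3 (adjusted p of 0.0566, 0.0783 and 0.0827) and satellite replicate 2 (0.0553). The call for both lines was lost without iPax3 replicates 1, 2 and 3 (0.0647, 0.0836 and 0.093), iPax7 replicates 2 and 3 (0.0844 and 0.0773) and satellite replicates 2 and 3 (0.0987 and 0.0712). With the normexp background correction the differences were 2.57 (adjusted p = 0.238) and 1.33 (0.501). Both calls were also lost with slide (0.0523 and 0.141) and scan day (0.0557 and 0.142) as a random block, and the iPax7 call with only the groups compared (0.0804). Meox2 and Meis1, homeobox genes of limb muscle precursors and proximal limb, differed by 6.58 ± 1.24 (adjusted p = 0.053) and 5.33 ± 1.02 (0.0558).

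Cell type markers moved with the same split. A summed level is the log2 of the sum of the markers' unlogged levels, so the brightest markers weigh most. That of 10 satellite cell markers was 7.25, 7.83 and 8.14 in satellite replicates 1, 2 and 3. On the re-isolated arrays it was between 5.15 and 6.24. The Sim2 and Pitx3 levels stood in the same order on the satellite cell arrays. All these values share the division by the array percentile, which fell in that order (849, 353.9 and 206.5 units). Before it, the Sim2 signals stood in that order and those of Pitx3 did not. The percentile fell by a larger factor than the marker sum rose, so before the division that sum stood in the reverse order. All 10 satellite cell markers had a lower mean in both lines together than in satellite cells, with a median difference of −2.68. Of these 1, Chrdl2, was called (2 without satellite replicate 2 or 3), where 0.13% of all probes were called lower. At an unadjusted p under 0.05, 7 of the 10 were lower. In iPax7 alone 9 were lower and 1, Vcam1, was higher. The summed level of 8 markers of fibro-adipogenic progenitors and fibroblasts was 8.25 to 9.18 in iPax3, 8.6 to 9.46 in iPax7 and 1.85 to 2.81 in satellite cells. All 8 were higher in re-isolated cells, with a median difference of 6.14, and 7 were called. Of all probes, 0.628% were called higher. All 8 had an unadjusted p under 0.05, beside 14.3% of all probes in either direction.

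Between 8 and 10 of the satellite cell markers were well above background on each array, and between 6 and 8 of the fibroblast markers. Myf5, a satellite cell marker, was not well above background on any iPax7 array and was so on 1 iPax3 and 2 satellite cell arrays. Each of the other markers in these lists was well above background on at least 2 arrays of every group. The part of these markers in the Sim2, Pitx3 and Meis2 differences was not tested. Markers of Schwann and neural cells, the other lineages in which Sim and Zic genes are known, summed to 3.73 to 4.18 in iPax3, 3.54 to 4.08 in iPax7 and 3.85 to 5.66 in satellite cells, with 6 of 6 lower in re-isolated cells and 0 called (0 at an unadjusted p under 0.05). Endothelial, leukocyte, mature fibre, pericyte and tenocyte markers had medians of −0.2, 0.2, −0.45, −0.8 and 0.7, with 0 called in each list by the probe of highest mean and 0, 1, 0, 1 and 2 genes at an unadjusted p under 0.05. The endothelial median differed between the lines, at −2.14 in iPax3 and 0.97 in iPax7. All 6 endothelial markers had a higher mean in iPax7 than in iPax3, with 0 called. A second probe of the tenocyte marker Thbs4, A_52_P401504, was called higher, by 6.39 ± 1.02 in iPax3 (adjusted p = 0.0428) and by 4.98 ± 0.89 in both lines together (0.0436). The call for both lines was lost without any 1 of the 9 arrays (0.0502 to 0.148), and the iPax3 call was kept only without satellite replicate 1 (0.0341).

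**Figure D5:**
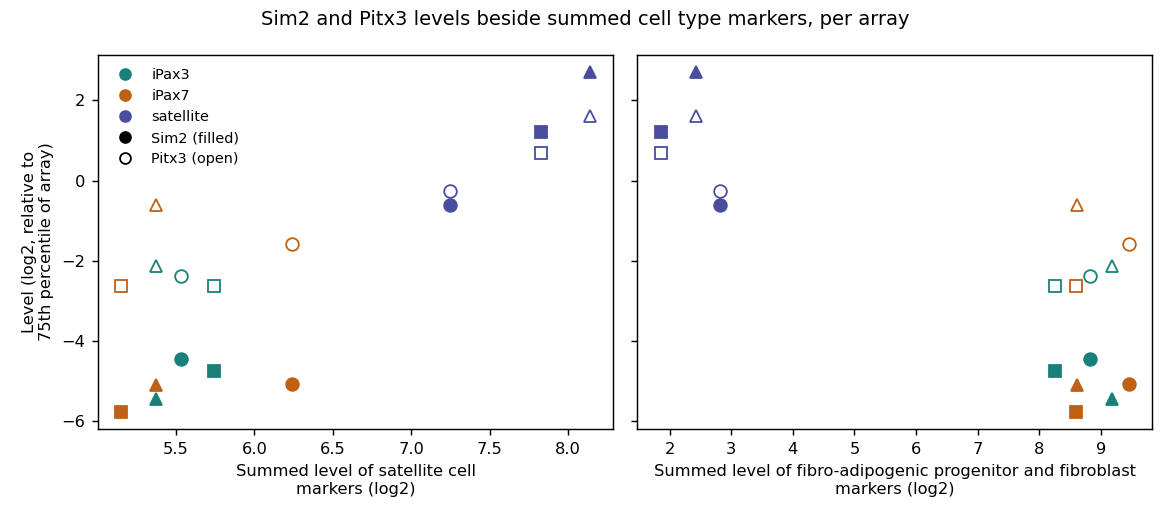
Points give the levels of Sim2 (filled) and Pitx3 (open) on each array (log2, minus the 75th percentile), against the summed level of 10 satellite cell markers (left) and of 8 fibro-adipogenic progenitor and fibroblast markers (right), with circles, squares and triangles for replicates 1, 2 and 3. The satellite cell arrays stand apart on both horizontal axes, at 7.25 to 8.14 and at 1.85 to 2.81.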

How the data were processed

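The intensity values that the authors deposited are scanner output. Per the file headers, the software was Agilent Feature Extraction 10.5.1.1 and it detrended the signals and subtracted background. A second deposited table gave log2 values for 31918 spots. Its columns had medians of 7.63 to 7.71 and correlated at 0.9875 to 0.9993 with the log2 mean signal, and how its columns were adjusted to each other is not given in the sources used here, so it served as an alternative. Groups came from the sample titles.

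Processed signals were taken as log2, and the array's 75th percentile over non-control spots was subtracted. Outlier spots were left out (60 to 342 per array), and none was saturated. Probes well above background on at least 3 of 9 arrays, lacking a value on no more than 2 arrays and with at least 2 values per group, were tested: 32982 of 41174. limma 3.58.1 in R 4.3.3 fitted 1 mean per group over all 9 arrays (6 residual and 3.2 prior degrees of freedom), with Benjamini-Hochberg adjustment over all probes at 0.05. Intervals and SE are of the fit. A group in which no array was well above background has only a bound, set against the lowest such signal of each array. The script was tested on simulated data.

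The named genes are all members, every called gene of the related lists and at most 2 more per list with the largest difference, and the 3 genes most correlated with a called member. The members and lists were chosen with earlier results of these data known. Alternatives covered background correction, scaling, filters, probe summaries, blocks and each array left out.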

Additional observations from a re-analysis of the deposited data

How the results depend on the processing

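Of 348 member differences under 16 other settings, 324 kept their direction and side of the threshold, 12 reversed and 12 lost a call, all of Sim2. With 1 array left out, 192 of 216 did, 8 reversed and 16 lost a Sim2 call. The count of member probes called fell from 1 to 0 for iPax3 with normexp, the filter on all 9 arrays (where Sim2 was not tested), trend and robust options, only the groups compared, the replicate block, slide and scan day as random blocks; for iPax7 with that filter, only the groups compared, the replicate block, slide and scan day; and for both lines with that filter, slide and scan day. It was 0 to 1 with 1 array left out, and 0 to 0 between the lines. The sample titles do not say whether same-numbered samples share an experiment. The r of deviations between same-numbered arrays was −0.14 to 0.05, which cannot decide this with 3 arrays per group. The replicate block is therefore given as an alternative. It left 24 probes called for iPax3, 75 for iPax7 and 127 for both lines, with Sim2 at adjusted p of 0.121, 0.0903 and 0.0471.

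Counts over all probes (127, 143, 0 and 250 for iPax3, iPax7, iPax7 against iPax3 and both lines) became 205, 236 and 379 in the authors' deposited table for the comparisons with satellite cells, 20 and 40 with only the groups compared, 19, 71 and 70 with slide and 39, 58 and 71 with scan day as a random block. The filter on all 9 arrays left 94 for iPax7. Between the lines, quantile normalisation called 2, and the mean of a gene's probes and the slide block 1 each. With 1 array left out the counts ranged from 14 to 624, 53 to 688, 0 to 0 and 102 to 944.

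Reversed values belonged to differences that had not passed the test. Tbx15 for iPax3 was −0.32 with normexp and −0.04 in the authors' deposited table (−0.63 to 1.46 with 1 array left out), for both lines 0.04 with the percentile over probes above background on all arrays (−1.19 to 0.9), and for iPax7 −1.74 to 0.34 with 1 array left out. Between the lines, Sim2 was 0.07 with normexp, 0.27 with dim spots raised and 0.12 in the authors' deposited table. Tbx1 was −0.09 with quantile normalisation, −0.06 with that percentile, −0.02 in the authors' deposited table, −0.33 with slide as a random block and −0.82 within slide 1 (−0.81 to 0.54 with 1 array left out). The fit within slide 1 was chosen after seeing the data and rests on a single iPax7 array, replicate 1. Tbx5 was 0.05 with the mean of its probes (−0.75 to 0.33). The causes were not tested. The number of arrays and signals near background limit the precision.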
